A study of Mus musculus with 9 samples.

Results

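Transcripts of 9 genes of the B lineage were followed in bulk RNA-seq of pre-cDCs, the precursors of conventional dendritic cells. The 9 genes were found by symbol among the 51912 genes of the count table, and they were picked from measured levels to set the abundant Ighm and Cd79b beside B cell genes that were near absent. Their levels are therefore given as a description with no test. The genotype contrast was not used for the picks, and the picking rule named no difference between tissues, so both differences were tested. Levels in all 9 samples entered the picks, so the tissue comparison of the members is not independent of them.

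The samples were 3 WT and 3 DNGR-1 KO samples of BM pre-cDCs, 1 WT and 2 DNGR-1 KO samples of splenic pre-cDCs, for 9 in all. Every sample came from untreated mixed BM chimeras, in which lethally irradiated BL/6 CD45.1/2 mice had received marrow of WT donors (BL/6 CD45.1) and of DNGR-1 KO donors (Clec9aCre/Cre, CD45.2) in equal parts, and each sample was a pool of cells from a pair of mice. For WT samples, one label field gives CD45.1 and a second gives CD45.2. The KO cells carry a Cre allele at Clec9a in both copies, from a line made in BL/N embryonic stem cells and backcrossed to C57BL/6J, so genotype and CD45 allele cannot be told apart. By the study's account, mice were young adults when experiments began. The paper does not state how long after grafting the cells for RNA-seq were taken. Pre-cDCs were sorted as lineage-negative cells, and the lineage cocktail described by the study included an antibody to B220, which is carried by B cells.

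Total counts were 17103806 to 23722298 per sample, so that 3 counts corresponded to 0.127 to 0.175 CPM, a floor that covers counting error only. Clec9a, which encodes DNGR-1, was counted 905 to 1766 times in WT BM and 2459 times in WT spleen, against 0 or 1 in every DNGR-1 KO sample. All 12 markers of pre-cDCs and cDCs exceeded 3 counts in every sample. The spleen samples stood apart in transcripts of other cell types. The 7 T cell markers summed to 891 to 3817 CPM in spleen and to 0.974 to 9.96 CPM in BM, the 7 erythroid markers to 8573 to 47113 CPM in spleen and to 120 to 614 CPM in BM, and the 8 neutrophil markers to at most 4.9 CPM in spleen and to 1086 to 3329 CPM in BM. Fewer cells of a type and less RNA per cell cannot be told apart in such samples.

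A B cell displays an antigen receptor made of 2 heavy chains and 2 light chains, held at the surface by the signalling pair CD79a and CD79b. Ighm encodes the constant part of the heavy chain of IgM, Igkc that of the kappa light chain, and a complete chain needs a V segment joined to its constant part by recombination. The transcription factors EBF1 and PAX5 set up and keep the B cell program, the membrane protein CD20 (Ms4a1) appears on B cells as they mature, the adaptor BLNK passes the receptor signal on to the cell interior, and the J chain (Jchain) links IgM or IgA units in antibody-secreting cells. Ighm transcripts that start upstream of the constant region without a joined V segment are known as germline or sterile transcripts.

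The products of Cd79a and Cd79b share a signalling motif, the ITAM, with a pair of tyrosines each followed at a fixed distance by a leucine or isoleucine. The codons of this motif are shown for both genes because the proteins work as a dimer while the counts of the genes differed widely. They come from the GENCODE M21 transcripts, 5′ to 3′, with the tyrosine and the leucine or isoleucine codons in capitals.
Cd79a: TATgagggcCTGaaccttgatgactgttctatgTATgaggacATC
Cd79b: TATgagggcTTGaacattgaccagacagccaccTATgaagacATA
The stretches lie at bases 685 to 729 of Cd79a-201 and 861 to 905 of Cd79b-201, and 31 of their 45 bases are identical. No stretch of 50 bases of Cd79b occurs in the transcript of any other gene, so reads of that length can be told apart from those of Cd79a.

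Ighm and Igkc are counted over their constant parts alone. The first 30 bases of each annotated transcript are shown because they lie in the constant region, with no V segment and no upstream exon before them.
Ighm: agagtcagtccttcccaaatgtcttccccc
Igkc: gggctgatgctgcaccaactgtatccatct
The count of either gene thus does not say what the transcript carried upstream. In GRCm38, Ighm (ENSMUSG00000076617) lies at chr12:113418558-113422730 on the minus strand with 1886 exonic bases, and Igkc (ENSMUSG00000076609) is a single exon at chr6:70726435-70726966 on the plus strand. No stretch of 50 bases of either occurs in another gene's transcripts.

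Ighm was among the most abundant transcripts of pre-cDCs. It was counted 15111, 16372 and 20945 times in the WT BM samples, 20216, 27893 and 23347 times in the DNGR-1 KO BM samples. For spleen, the counts were 16160 (WT), 12059 and 21405 (both DNGR-1 KO). Every sample thus held at least 12059 Ighm counts, and the lowest and highest differed by less than 3-fold. Per length, as counts per exonic base scaled to a common total (TPM), its level was 1364.5 ± 361 (SD, n = 9), and it ranked between 64th and 162nd of all genes in each sample.

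Cd79b, the beta chain of the receptor's signalling pair, at chr11:106311341-106314762 (ENSMUSG00000040592, minus strand), was counted 681, 907 and 732 times in WT BM and 832, 833 and 1164 times in DNGR-1 KO BM. Its spleen counts were 624 in WT, and 576 and 598 in DNGR-1 KO. Its level was 72.4 ± 19.4 TPM (SD, n = 9), with a rank between 1635 and 2996. Ighm exceeded Cd79b per length in all 9 samples, by 13.7- to 27.2-fold.

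Cd79a, the alpha chain and partner of Cd79b, at chr7:24897381-24902197 (ENSMUSG00000003379, plus strand), was counted 0, 0 and 2 times in WT BM and 6, 4 and 1 times in DNGR-1 KO BM. Its spleen counts were 1 in WT, and 49 and 0 in DNGR-1 KO. DNGR-1 KO spleen sample 1 alone was above 6 counts, and 6 of the 9 samples were at or under 3. The level of Cd79a was 0.581 ± 1.26 TPM (SD, n = 9), and Cd79b was above Cd79a on this scale in every sample. Of the 50-base stretches of Cd79a, 8.31% also occur in the predicted gene Gm32220, so that reads of Cd79a could have been divided with it.

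Both transcription factors of the B cell program were at the floor. Ebf1 (ENSMUSG00000057098, chr11:44617317-45008091, plus strand) was counted 1 time in WT BM sample 1 and in DNGR-1 KO BM sample 3, and 0 times in the other 7 samples. Pax5 (ENSMUSG00000014030, chr4:44524757-44710487, minus strand) was counted 3 times in DNGR-1 KO BM sample 1 and 0 times in the other 8 samples. At this depth, 3 counts corresponded to at most 0.175 CPM in any sample, which is no upper bound on the level of either gene.

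Igkc, the kappa light chain, remained low beside Ighm. It was counted 9, 7 and 3 times in WT BM, 0, 1 and 2 times in DNGR-1 KO BM, 19 times in WT spleen and 11 and 5 times in DNGR-1 KO spleen. Its level was 1.62 ± 1.64 TPM (SD, n = 9). The WT and DNGR-1 KO counts in BM did not overlap, and neither did those of 4.39% of all tested genes in this direction. Igkc had too few counts to be tested, and its 3 DNGR-1 KO BM samples were all at or under 3 counts. The lambda light chain gene Iglc2 was counted 39 times in DNGR-1 KO spleen sample 2 and 0 times in the other 8 samples, and Iglc1 and Iglc3 did not exceed 3 counts.

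Ms4a1 and Jchain exceeded 1 count only in some of the spleen samples. Ms4a1 (ENSMUSG00000024673, chr19:11249675-11266241, minus strand) was counted 213 and 222 times in the DNGR-1 KO spleen samples, 0 times in the WT spleen sample, and at most 1 time in any BM sample. Jchain (ENSMUSG00000067149, chr5:88519809-88527891, minus strand) was counted 226 times in the WT spleen sample, 0 and 176 times in the DNGR-1 KO spleen samples, and at most 1 time in any BM sample. The samples that held Ms4a1 were thus only in part those that held Jchain, as DNGR-1 KO spleen sample 2 held both, sample 1 Ms4a1, and the WT sample Jchain. Cd79a, with 49 counts, appeared in the spleen sample that had Ms4a1 and no Jchain. The spleen samples also carried the T cell and erythroid transcripts given above, and their part in these counts was not tested.

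Blnk, the adaptor downstream of the receptor, was the third member above 3 counts in all samples. Blnk (ENSMUSG00000061132, chr19:40928927-40994535, minus strand) was counted 175, 51 and 272 times in WT BM, 200, 188 and 318 times in DNGR-1 KO BM, 527 times in WT spleen and 138 and 510 times in DNGR-1 KO spleen. WT BM sample 2 was the lowest and the WT spleen sample the highest. Its level was 5.80 ± 3.57 TPM (SD, n = 9).

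In order of mean level per length, Ighm and Cd79b were followed by Blnk, Jchain at 2.32 TPM, Igkc, Ms4a1 at 0.874 TPM, Cd79a, Pax5 at 0.0051 TPM and Ebf1 at 0.0030 TPM. The lowest Ighm value of 743 TPM was above the highest Cd79b value of 100 TPM, and the lowest Cd79b value of 44.8 TPM was above the highest Blnk value of 13.0 TPM. From Blnk downward, the ranges of neighbouring genes overlapped, and their order is not separated by the spread between samples. The authors' variance-stabilized values (VST, log2 scale, floor of 8.43 at 0 counts) had the same 3 genes on top, with means of 14.1 for Ighm, 10.3 for Cd79b and 9.55 for Blnk, and means of 8.45 to 8.68 for the other 6.

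**Figure D1:**
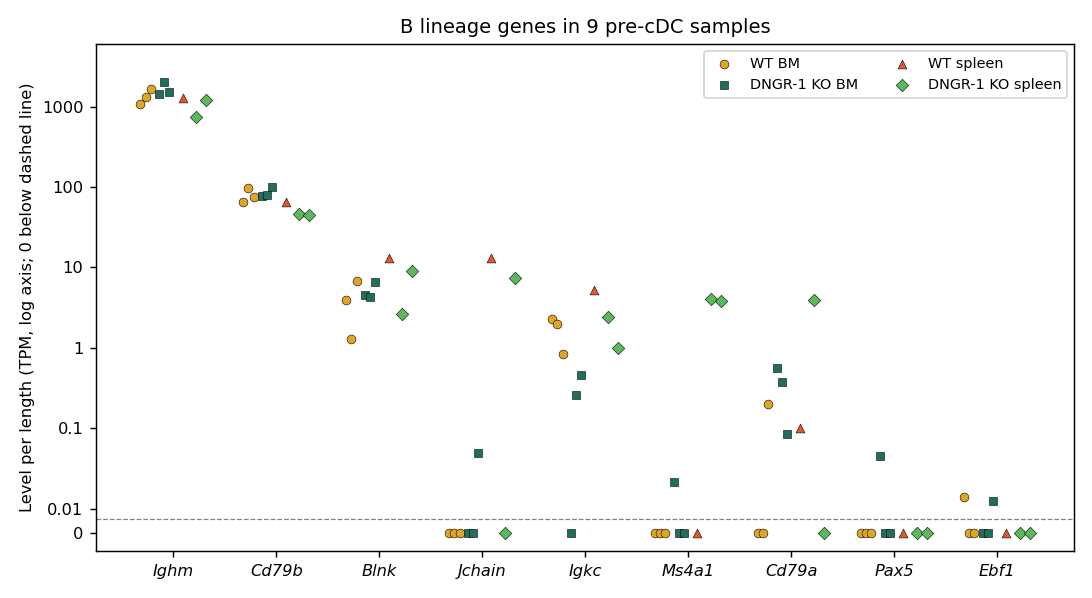
Level per length (TPM, log axis) of the 9 B lineage genes, with 1 point for each of the 9 samples, coloured by genotype and tissue, and samples at 0 below the dashed line. Ighm lies between 743 and 2028 TPM and Cd79b between 44.8 and 100 TPM in every sample, whereas Ebf1 and Pax5 are at or near 0 in all of them.

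The V segments that a complete heavy chain would carry were nearly uncounted. The 113 annotated Ighv genes together had 4, 4 and 33 counts in WT BM, 6, 5 and 22 in DNGR-1 KO BM, 42 in WT spleen, and 11 and 8 in DNGR-1 KO spleen. Per length, their summed level in TPM was 0.0895% to 1.175% of that of Ighm and Ighd together. The same ratio could be read for the T cell receptor beta chain in the spleen samples, where T cell transcripts were abundant. There, the 22 Trbv genes had 58.9% of the summed TPM of the constant genes Trbc1 and Trbc2 for WT, and 54.7% and 55.3% for DNGR-1 KO. The ratio for the heavy chain was below that for the beta chain in each spleen sample. How well reads of recombined V segments were mapped at either locus was not tested.

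For the light chain, the 100 Igkv genes summed to at most 4 counts in any BM sample, and to 12 counts in WT spleen and 44 and 27 in DNGR-1 KO spleen. In DNGR-1 KO spleen, Igkv counts exceeded those of Igkc. The D and J segment genes of the heavy chain had 0 counts in every sample, but those of the T cell receptor beta chain also had 0 counts in the spleen samples, and D and J segments are only 10 to 100 bases long, so this 0 carries little information. Among the other heavy chain constant genes, Ighd was counted 68 to 254 times in BM, 166 times in WT spleen and 2 and 476 times in DNGR-1 KO spleen. Ighg2b reached 142 counts in WT spleen and Ighg2c 139 in DNGR-1 KO spleen sample 1, and Igha, Ighe, Ighg1 and Ighg3 were at 0 throughout.

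**Figure D2:**
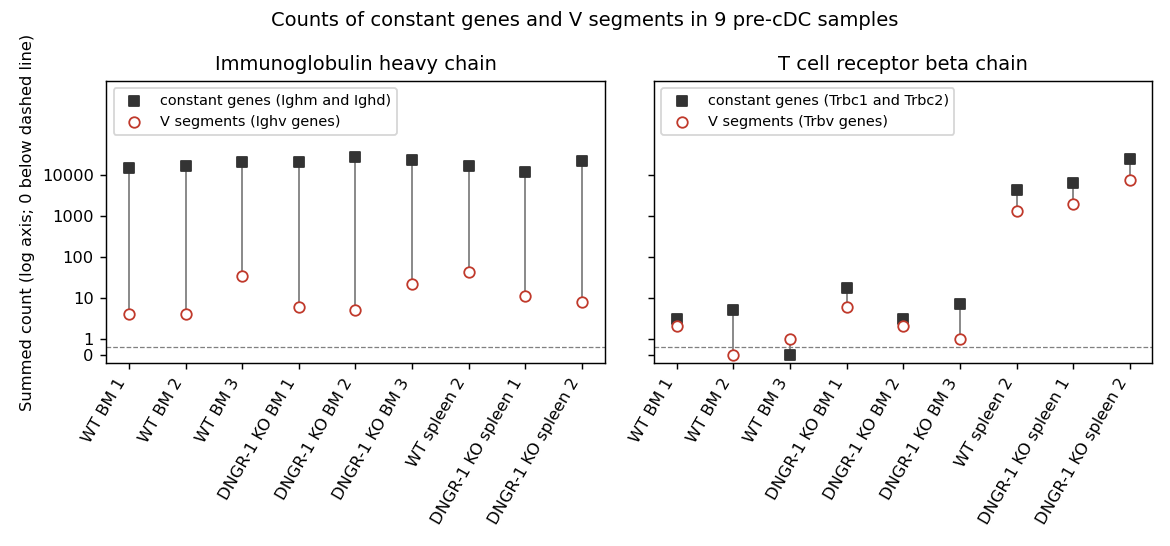
Summed counts (log axis, 0 below the dashed line) of the constant genes, as filled squares, and of the V segment genes, as open circles, in each of the 9 samples, for the immunoglobulin heavy chain on the left and the T cell receptor beta chain on the right. V segments of the heavy chain sum to 4 to 42 counts below at least 12061 counts of constant genes, while in the 3 spleen samples the V segments of the beta chain reach 1323 to 7431 counts.

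To ask whether DNGR-1 bore on these transcripts, BM pre-cDCs of both genotypes were compared. Ighm stood at 893, 848 and 1074 CPM in WT samples, against 920, 1372 and 1169 CPM without DNGR-1, and the ranges overlapped. Its log2 fold change was 0.28 (standard error 0.22, 95% interval -0.22 to 0.78), with an adjusted p of 0.861 by edgeR's quasi-likelihood test with Benjamini-Hochberg adjustment. Cd79b stood at 40.3, 47.0 and 37.6 CPM in WT samples, against 37.9, 40.98 and 58.3 CPM without DNGR-1, with a log2 fold change of 0.12 (95% interval -0.46 to 0.70, edgeR adjusted p = 0.938). Blnk averaged 8.98 ± 5.78 CPM in WT samples, against 11.4 ± 3.90 CPM without DNGR-1 (SD, n = 3 each), with a log2 fold change of 0.34 (95% interval -0.87 to 1.54, edgeR adjusted p = 0.916). None of the 3 members with enough counts passed the test, by edgeR, DESeq2 or limma-voom, and none had an unadjusted p below 0.05 by edgeR, where 0.0307% of all 13016 tested genes passed and 3.83% had an unadjusted p below 0.05. The intervals leave room for an Ighm level up to 0.78 higher on the log2 scale in DNGR-1 KO cells. The direction for Cd79b and for Blnk turned when a single sample was left out, to -0.10 without DNGR-1 KO BM sample 3 for Cd79b and to -0.10 without WT BM sample 2 for Blnk.

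Splenic pre-cDCs were next compared with BM pre-cDCs, with genotype as a covariate. Ighm was at 843 ± 153 CPM in spleen (SD, n = 3) and 1046 ± 200 CPM in BM (n = 6), a log2 fold change of -0.30 (standard error 0.21, 95% interval -0.77 to 0.17, edgeR adjusted p = 0.367). Cd79b was at 36.9 CPM in WT spleen and at 31.98 and 25.3 CPM in DNGR-1 KO spleen, below the lowest, median and highest BM values of 37.6, 40.6 and 58.3 CPM. The spleen and BM ranges of Cd79b did not overlap, as was the case for 17.7% of tested genes in this direction. Its log2 fold change was -0.46 (standard error 0.26, 95% interval -1.05 to 0.14, edgeR adjusted p = 0.271). The median log2 fold change of all genes in this comparison was -0.18. Blnk was at 31.2 CPM in WT spleen and at 7.66 and 21.6 CPM in DNGR-1 KO spleen, against 2.64 to 15.9 CPM in BM, and the ranges overlapped (log2 fold change 0.98, 95% interval -0.40 to 2.37, edgeR adjusted p = 0.311). Without the WT spleen sample this value was 0.37. None of these 3 members passed the test by any of the 3 tools, and none had an unadjusted p below 0.05 by edgeR, whereas 19.5% of all 13468 tested genes passed and 33.5% had an unadjusted p below 0.05.

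**Figure D3:**
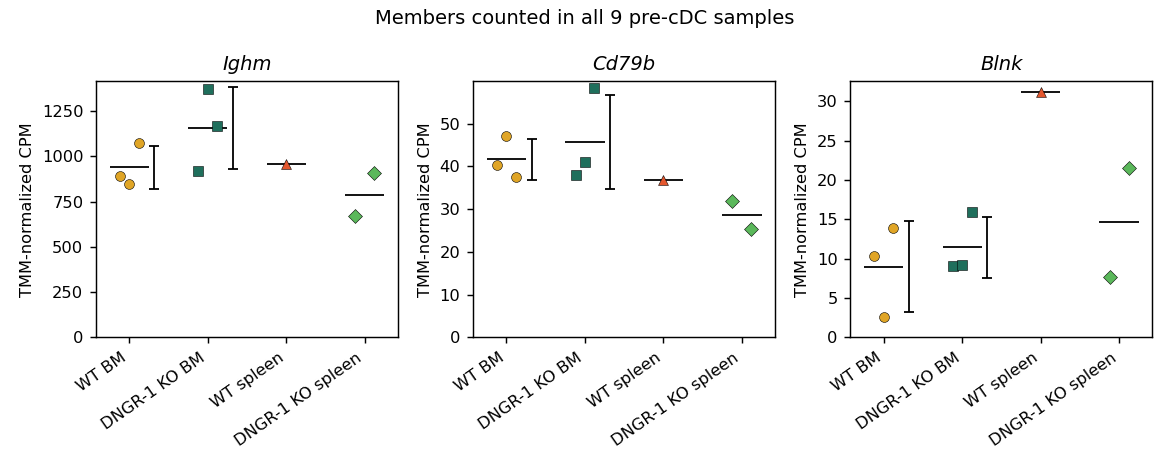
TMM-normalized CPM of Ighm, Cd79b and Blnk, with 1 point for each sample, horizontal lines at the group means and error bars of 1 SD for the groups of 3. WT and DNGR-1 KO BM samples overlap for all 3 genes, and the 3 spleen samples of Cd79b, at 25.3 to 36.9 CPM, lie below the 6 BM samples.

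Between the genotypes in spleen, no test was made because WT had 1 sample. The DNGR-1 KO samples differed from each other in Jchain, with 0 and 176 counts, in Cd79a, with 49 and 0, in Ighd, with 2 and 476, and in Blnk, with 138 and 510. Ms4a1 alone among the members was counted at similar numbers in both DNGR-1 KO samples and at 0 in the WT sample.

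The genes whose level most resembled that of Ighm over the 6 BM samples were Traf3ip3 (Pearson r = 0.996), Gm2a (r = 0.994) and Cyp4f16 (r = 0.986), among 9656 genes of at least 5 CPM. For Cd79b they were Ccdc186 (r = 0.976), Tmub1 (r = 0.973) and Ccdc181 (r = 0.967). These are the highest of many values over 6 points that share libraries and scaling, and are given as a description. In spleen, Traf3ip3 stood at 208 to 292 CPM against 62.1 to 104 CPM in BM, whereas the Ighm ranges of both tissues overlapped.

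Other genes of the B lineage were taken from 6 lists of 51 genes, all found in the table. In the comparison of genotypes in BM, 31 were tested and 0 were called by edgeR, DESeq2 or limma-voom, with 0 at an unadjusted p below 0.05 by each. Of all genes tested there, edgeR called 0.0307%, and 3.83% had an unadjusted p below 0.05. In the comparison of tissues, 32 were tested, and edgeR called 4 higher and 2 lower in spleen, beside 7.28% of all genes higher and 12.3% lower. DESeq2 called 5 higher and 4 lower, adding Pik3ap1, Rag2 and Vpreb1, and limma-voom called 5 higher and 3 lower, adding Pik3ap1 and Vpreb1. Among all 13468 genes tested, DESeq2 called 3946 and limma-voom 3388. Of the 6 genes called by edgeR, Ikzf3 passed the filter on low counts through spleen alone and Dntt and Igll1 through BM alone, the tissue in which each was high, so their calls add no support to a difference between tissues in these lists. Rag2 and Vpreb1 also passed it through BM alone, so their calls by DESeq2 or limma-voom add none either.

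Of the antigen receptor genes, 3 of 8 could be tested between tissues, Ighm, Cd79b and Ighd, and none was called. Of the genes for receptor recombination and the surrogate light chain, 4 of 7 were tested and 2 were lower in spleen. Dntt, which encodes the polymerase TdT that adds bases at recombination joints, was counted 208, 141 and 2204 times in WT BM, 475, 342 and 1063 times in DNGR-1 KO BM and at most 1 time in spleen (edgeR adjusted p = 0.00236). WT BM sample 3 and DNGR-1 KO BM sample 3, which had the most Dntt, also had the most Ighv counts in BM. Igll1, a component of the surrogate light chain, was counted 51 to 132 times in BM and 0, 5 and 0 times in spleen (edgeR adjusted p = 0.0251), and was called in 12 of 16 alternatives. The 4 without a call were a fit blocked by replicate number, one of DNGR-1 KO samples only, and the fits without WT BM sample 3 or without DNGR-1 KO BM sample 3. Rag2, a subunit of the recombinase, was counted 0 to 40 times in BM and 0 times in spleen (edgeR adjusted p = 0.0517, called lower by DESeq2), and its partner Rag1 did not exceed 3 counts. Vpreb1, the other component of the surrogate light chain, was counted 2 to 21 times in BM and at most 1 time in spleen (edgeR adjusted p = 0.0566). All tested genes of this list passed the filter on low counts through BM alone, so these tests add no support to a difference between tissues. The neutrophil markers were also near 0 in spleen. Within BM, Elane and Mpo were lowest in WT BM sample 3 and DNGR-1 KO BM sample 3, where Dntt was highest. S100a8, S100a9, Ngp and Ltf were lowest in WT BM sample 2 and DNGR-1 KO BM sample 2. Prtn3 and Ctsg were lowest in WT BM sample 3 and DNGR-1 KO BM sample 2. The part of neutrophil transcripts was not tested.

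Of the B lineage transcription factors, 5 of 8 were tested and Ikzf3 was higher in spleen. Ikzf3, which encodes the lymphoid factor Aiolos, was counted at most 5 times in BM, 13 times in WT spleen and 737 and 1687 times in DNGR-1 KO spleen (edgeR adjusted p = 0.000378). In contrast to Ebf1 and Pax5, the factors Bcl11a at 179 ± 12.9 CPM, Spib at 100 ± 36.6 CPM and Tcf3 at 37.8 ± 11.5 CPM were well counted in BM (SD, n = 6), all of which are also used outside the B lineage.

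Of the B cell surface molecules, 7 of 10 were tested and 2 were higher in spleen, Cd72, an inhibitory coreceptor, at 2.60 on the log2 scale (standard error 0.23, edgeR adjusted p = 0.000167) and Il7r, the receptor chain for interleukin-7, with 6.64 (standard error 0.71, edgeR adjusted p = 0.000443). Il7r and Ikzf3 are also expressed by T cells, whose markers had higher sums in spleen than in BM, as given above. Their part in these differences was not tested. Cd22, another inhibitory coreceptor, was counted 324 to 1458 times in BM and 1086 to 2148 times in spleen, with a log2 fold change of 0.94 (edgeR adjusted p = 0.117).

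Of the antigen receptor signalling genes, 9 of 10 were tested and 0 called between tissues by edgeR, with 1 at an unadjusted p below 0.05, Pik3ap1, which DESeq2 and limma-voom called higher. Lyn, a kinase that phosphorylates ITAMs, stood at 362 ± 114 CPM in BM and 454 ± 138 CPM in spleen, Vav1, an exchange factor, at 257 ± 82.4 and 241 ± 35.9 CPM, and Plcg2, a phospholipase that BLNK recruits, at 223 ± 101 and 220 ± 34.1 CPM (SD, n = 6 and 3), so that, like Blnk, these components were counted in every sample. Blk and Bank1, from the same signalling list, had 0 counts in some samples of both tissues. Of the plasma cell genes, which include Jchain, 4 of 8 were tested and Irf4 was higher in spleen (log2 fold change 2.74, standard error 0.48, edgeR adjusted p = 0.00446). Xbp1, a factor of the secretory program, was at 125 ± 14.1 CPM in BM and 163 ± 53.8 CPM in spleen, with a log2 fold change of 0.40 (edgeR adjusted p = 0.238). Sdc1, a surface protein of plasma cells, was counted 60 to 245 times in BM, 528 times in WT spleen and 0 and 1 times in DNGR-1 KO spleen (edgeR adjusted p = 0.837).

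**Figure D4:**
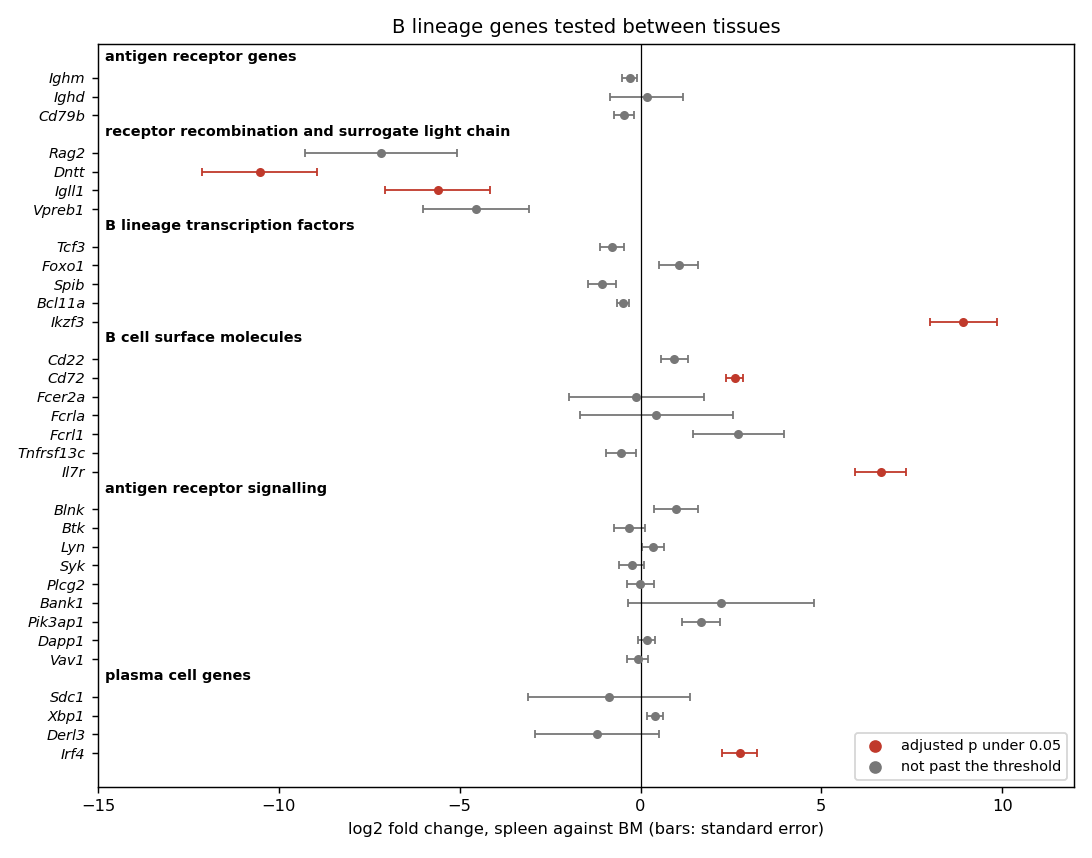
Log2 fold change of spleen against BM, with its standard error, for the 32 B lineage genes that were tested, grouped by list. The 6 called genes are in red, 4 to the right of 0 and 2 to the left, Ighm, Cd79b and Blnk are in grey, and fitted values of genes near 0 in a tissue depend on the prior count and are no bounds.

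Beside Ighm and Cd79b, the 12 defining B cell markers, which include Cd79a, Ms4a1, Ebf1, Pax5 and Igkc, summed to 22.5 to 76.2 CPM in BM, to 127 CPM in WT spleen and to 87.8 to 102 CPM in DNGR-1 KO spleen. Most of that sum came from Cd22. The 15 plasmacytoid DC markers, a cell type that also arises in BM and can carry B lineage transcripts, summed to 1171 to 1507 CPM in BM, to 1587 CPM in WT spleen and to 1059 to 1063 CPM in DNGR-1 KO spleen. Ighm was lowest in DNGR-1 KO spleen sample 1, at 669 CPM, and stood at 905 CPM in DNGR-1 KO spleen sample 2. The marker sums of these samples were close, but single markers differed in both directions. Siglech was counted 1477 times in sample 1 and 610 times in sample 2, and Runx2 986 and 2623 times. Much of the plasmacytoid DC sum in BM came from Bst2, Runx2, Tcf4 and Siglech, with means of 366, 243, 199 and 130 CPM. Ccr9, Tlr7 and Klk1, from the same list, averaged 5.83, 0.804 and 0.106 CPM in BM. The sum therefore rests on some of the 15 markers more than on others. The part of plasmacytoid DC transcripts in the levels of Ighm and Cd79b was not tested.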

How the data were processed

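Bulk RNA-seq of 9 pre-cDC samples was analysed, with groups taken from labelled genotype and tissue. Splenic cDC1 samples were not analysed here. The authors deposited expected counts per gene, not normalized (25.6% of nonzero values not whole), and log2-scale VST values of 20810 genes. The submitters' processing notes name Trimmomatic 0.36, STAR 2.5.2, RSEM 1.3.0, DESeq2 1.18.1, R 3.4.3 and GRCm38. The strand setting is not given in the sources used here, and expected counts can divide reads between genes that share sequence. Expected counts were rounded to whole numbers because the tests had been planned for raw counts.

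Symbols (51719 of 51912 identifiers), coordinates, lengths and sequences came from GENCODE M21. TPM was computed here from union exon lengths. Tests used edgeR 4.0.16 under R 4.3.3 (filterByExpr by genotype in BM or by tissue, TMM, quasi-likelihood test, Benjamini-Hochberg threshold 0.05): BM genotypes over 6 samples, tissues over 9 with genotype as a covariate. CPM values are scaled by TMM, except sums over markers, which are scaled to the total count. Alternatives were DESeq2 1.42.0, limma-voom (limma 3.58.1), other filters, the replicate block and each sample left out. The scripts were tested on simulated data. Replicates differed by far more than sampling noise (chi-square per gene 28.9 to 257). Each sample was a pool from a pair of mice, and the paper gives 6 mice in total. Pools of different groups would thus share mice, but which ones do is not stated. The main tests took no account of this.

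Members and lists were chosen with earlier results of these data known. Named are all 9 members, in each B lineage list the 3 genes of highest mean CPM and up to 3 called, and 3 genes most like Ighm and Cd79b. Rag1, Vpreb1, Pik3ap1, Blk, Bank1, other constant genes, Iglc genes, Clec9a and single neutrophil and plasmacytoid DC markers were named outside this rule, after their values were seen. An item withheld for evaluation is not reported here.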

Additional observations from a re-analysis of the deposited data

How the results depend on the processing

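Ighm kept its direction and stayed short of the threshold under all 12 alternatives in BM (log2 fold change 0.16 to 0.43) and all 16 between tissues (-0.54 to -0.13). Cd79b and Blnk did so in 11 of 12 in BM and 16 of 16 between tissues, where a left-out sample gave -0.66 to -0.31 for Cd79b and 0.37 to 1.41 for Blnk. The exceptions were Cd79b at -0.10 without DNGR-1 KO BM sample 3 and Blnk at -0.10 without WT BM sample 2, and the cause was not tested; with a sample left out they reached at most 0.25 and 0.79. Genes called in BM numbered 4, against 11 with DESeq2 and 10 with no filter on low counts, and 2 to 15 with a sample left out. Between tissues 2631 were called, against 3946 with DESeq2, 3388 with limma-voom, 1336 in DNGR-1 KO samples only, where fewer samples were fitted, 1246 with the replicate number as a block, and 1848 to 3187 with a sample left out. The replicate block gave 4 calls in BM and changed no member's call, but between tissues Igll1 lost its call and Spib gained one. Deviations of same-numbered samples in BM correlated at 0.12, 0.23 and -0.19, so the numbers were not taken as pairs, and whether same-numbered pools shared mice is not stated. Ms4a1 and Jchain had too few counts for the main filter. Ms4a1 was called in 4 of the 16 tissue alternatives and Jchain in 3. Among these were no filter and a filter by the design, chosen after seeing the data. The design filter gave adjusted p of 0.0111 and 0.0085 by edgeR, although each gene had 0 counts in 1 of 3 spleen samples. In BM neither gene exceeded 1 count, so each passed a filter only through spleen, where it was high. Their calls therefore add no support to a difference between tissues. Levels per length moved by less than 1 SD with longest transcript lengths or with coding and immunoglobulin genes as the total. Summed Ighv counts over the 9 samples were 135, or 105 from genes with at least 3 counts. Depth leaves Ebf1 and Pax5 at or under 3 counts in all 9 samples and Cd79a and Igkc in 6 and 4 of them, and 3 spleen samples limit the tissue comparison.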
